A study of Mus musculus with 12 samples.

Results

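Tex101, Taf7l, Brdt, Tuba3a, Btbd18 and Gm7972 are 6 genes whose counts were lower in female mouse germ cells carrying a mutant Tet1 than in wild-type germ cells. They were picked by name, for that fall, from a count table of 35976 gene symbols, as genes largely restricted to germ cells and outside the meiotic and piRNA sets. The comparison of each mutant with wild type therefore chose them, and its values are given as a description; test calls on it are counted further on but support nothing, since the same values made the choice. All 6 were found in the table and all 6 passed the filter on low counts, which left 16166 genes.

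RNA was sequenced from primordial germ cells of female embryos at E14.5 (embryonic day), sorted by an Oct4-GFP reporter that every group shared, with 5000 cells per library. The groups were HxD (Tet1HxD/HxD, catalytically dead TET1), KO (Tet1-/-, the knockout), V (Tet1V/V, a TET1 that stalls at 5-hydroxymethylcytosine) and WT (wild type), with 3 libraries each. Which embryos or litters each library came from the labels do not say, so p-values describe the spread between these libraries, part of which may be technical.

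Primordial germ cells erase most of their DNA methylation, and TET1 adds to this by oxidizing 5-methylcytosine to 5-hydroxymethylcytosine and further products. Many germline genes have promoters that are methylated and silent in somatic tissues and become active as germ cells mature. At this stage female germ cells enter meiosis, while those in the fetal testis do not. Most of the 6 genes are best known from the later male germ line. TEX101 is a surface glycoprotein of the Ly6/uPAR family that sperm need to fertilize, and TAF7L is an X-linked relative of the TFIID subunit TAF7. BRDT is the testis member of the BET bromodomain family, which bind acetylated histones. TUBA3A is an alpha tubulin abundant in testis, BTBD18 is a BTB domain protein needed for transcription of pachytene piRNA precursors, and Gm7972 is a predicted gene for which no role is given here.

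The 250 bases before the RefSeq start of each gene (GRCm38.p6) were searched on both strands for 4 short motifs. These were the E-box CACGTG, the E2F-type site TCCCGC, the sequence CCAAT known as the CCAAT box, and the so-called GC box GGGCGG. The E-box CACGTG reads the same on both strands and was counted once, and GGGCGG can share letters with the reverse of TCCCGC, which did not occur in these windows. All 6 genes matched the promoter table. The windows of Taf7l and Brdt are shown because they hold CACGTG, that of Tex101 because it holds CCAAT 4 times, and that of Gm7972 because it holds none of the 4. Capitals mark the motifs. They lie at chrX:134476491-134476740, minus strand for Taf7l, chr5:107330944-107331193, plus strand for Brdt, chr7:24672051-24672300, minus strand for Tex101 and chr9:75468323-75468572, plus strand for Gm7972.
Taf7l: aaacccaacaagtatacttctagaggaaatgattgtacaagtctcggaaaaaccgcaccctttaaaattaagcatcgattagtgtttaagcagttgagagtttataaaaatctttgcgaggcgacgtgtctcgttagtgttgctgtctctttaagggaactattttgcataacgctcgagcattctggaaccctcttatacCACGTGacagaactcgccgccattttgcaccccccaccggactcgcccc
Brdt: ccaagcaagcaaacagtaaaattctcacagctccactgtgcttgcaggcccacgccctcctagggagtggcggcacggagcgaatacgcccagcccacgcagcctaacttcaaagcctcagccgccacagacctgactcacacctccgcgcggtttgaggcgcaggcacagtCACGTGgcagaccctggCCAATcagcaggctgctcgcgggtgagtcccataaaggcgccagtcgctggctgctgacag
Tex101: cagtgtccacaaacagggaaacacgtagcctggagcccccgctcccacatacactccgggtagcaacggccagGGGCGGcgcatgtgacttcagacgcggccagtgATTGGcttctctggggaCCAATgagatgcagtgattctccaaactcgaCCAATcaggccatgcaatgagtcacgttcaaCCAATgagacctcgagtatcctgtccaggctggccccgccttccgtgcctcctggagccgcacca
Gm7972: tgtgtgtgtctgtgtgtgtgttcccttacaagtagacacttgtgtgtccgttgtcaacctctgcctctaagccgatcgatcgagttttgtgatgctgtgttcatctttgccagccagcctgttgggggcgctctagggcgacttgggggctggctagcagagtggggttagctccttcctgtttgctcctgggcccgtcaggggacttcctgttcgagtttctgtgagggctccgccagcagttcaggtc

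CACGTG began 49 bases before the start of Taf7l and 78 bases before that of Brdt, and was in 2 of 6 windows, against 6.02% of 32841 promoter windows of the same length. CCAAT was in 4 of 6 windows (Tex101, Brdt, Tuba3a and Btbd18), against 33.9% of all windows. GGGCGG was in 2 of 6, Tex101 and Tuba3a, against 32.75%, and TCCCGC in 1 of 6, Tuba3a, against 16.9%. The 6 genes thus shared none of these motifs throughout. The number of CpG dinucleotides, the substrate of DNA methylation, was 14 in Tex101, 14 in Taf7l, 16 in Brdt, 8 in Tuba3a, 15 in Btbd18 and 9 in Gm7972, and the median over all windows was 6. The share of all windows with fewer CpGs ran from 56.99% for Tuba3a to 74.56% for Brdt, so such counts are common. The window of Btbd18 also covers the start of Ctnnd1, 95 bases away on the opposite strand, so its letters are not those of Btbd18 alone. Relative to base composition, CpG was densest in Taf7l, with an observed-to-expected ratio of 1.13, and lowest in Tuba3a, with 0.403, and the median over all windows was 0.374. These are letters in a window and do not show that a factor binds or that a CpG is methylated.

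Sequencing gave 18471158 to 29495313 counts per library, and 12568 to 17614 genes with a count. HxD1 and KO3 captured the fewest of the rarer genes, followed by KO1 and V2. CPM here means counts scaled to a common library size, with TMM factors. Of the 2936 rarer genes (average level 1 to 5 CPM), 45.7% were at 0 in KO3 and 43.7% in HxD1, with 27.1% in KO1 and 24.4% in V2, against 1.77% to 20.6% in the other libraries. Tet1 itself stood at 226.999, 221.7 and 285.8 CPM in HxD, 130.7, 158.3 and 80.8 in KO, 225.7, 197.04 and 192.007 in V, against 91.4, 180.1 and 215.05 in WT. It was not called in any mutant against WT (edgeR adjusted p at least 0.484), and these counts over the whole gene do not check the labels. All 8 germ cell markers (Ddx4, Dazl, Dppa3, Dnd1, Nanos3, Pou5f1, Kit and Mael) were present in every library. Their summed level was 2728 to 3250 CPM in HxD, 2879 to 3217 in KO, 2669 to 3202 in V and 3344 to 3994 in WT. The sum was lower in all 9 mutant libraries, but most of the 8 markers were not lower. In each mutant 3 of the 8 had a negative log2 fold change, and the list medians were 0.26 in HxD, 0.45 in KO and 0.35 in V. Dazl, the marker with the highest WT level, was at 1598 CPM in WT, 753 in HxD, 719 in KO and 686 in V (group means). Dazl and Mael were called lower in each mutant, while Pou5f1 was called higher in V. The 12 markers of supporting and stromal gonad cells summed to 6.75 to 16.7 CPM in HxD, 6.60 to 17.6 in KO, 10.6 to 48.3 in V and 10.1 to 35.4 in WT, with 2 to 9 of the 12 at 0, and Foxl2 was at 0 in all 3 WT libraries. Blood markers summed to at most 11.8 CPM in HxD, 4.80 in KO, 5.50 in V and 26.04 in WT. Endothelial markers stayed at or under 9.66 CPM and male-line markers at or under 1.87 CPM in every library. The part of other cell types in the results was not tested. In sorted bulk cells, fewer cells that express a gene and less RNA per cell cannot be told apart.

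**Figure D1:**
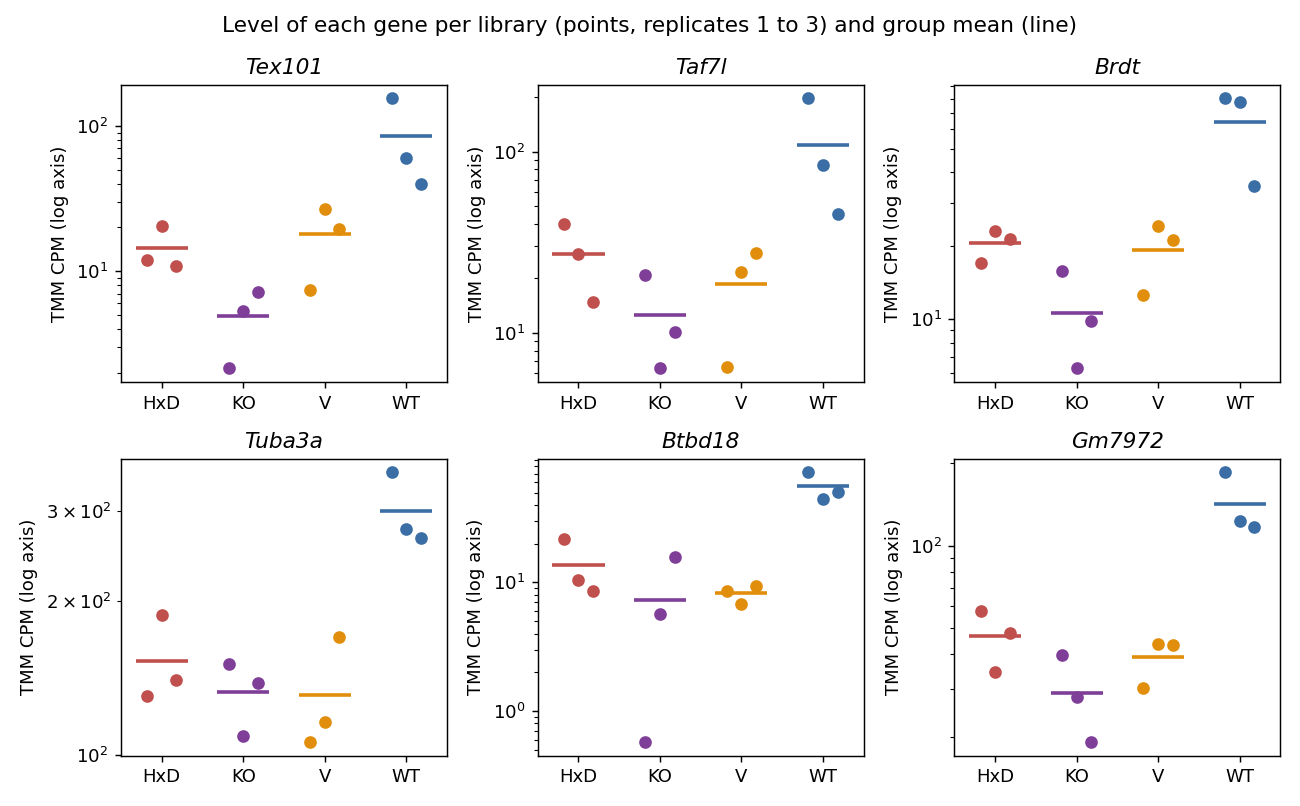
Level of each of the 6 genes in TMM-scaled CPM (log axis) in the 3 libraries of HxD, KO, V and WT; points are libraries in replicate order and lines are group means. All 9 mutant libraries lie below all 3 WT libraries in each panel, and WT1 is the highest WT library for every gene.

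Tex101, the surface protein gene, had the largest difference of the 6 in HxD and KO, while in V those of Btbd18 and Taf7l were larger. Its libraries stood at 12.02, 20.5 and 10.8 CPM in HxD, 2.14, 5.30 and 7.22 in KO, 7.47, 26.9 and 19.4 in V, against 154.8, 60.4 and 40.07 in WT. No mutant library reached the lowest WT library, and the KO libraries were the lowest group. The group means were 14.4 ± 5.26 CPM in HxD, 4.89 ± 2.57 in KO, 17.9 ± 9.82 in V and 85.1 ± 61.2 in WT (SD, n = 3 each). On the fitted scale the log2 fold change against WT (± SE, here and for the other genes) was -2.56 ± 0.48 for HxD, -4.12 ± 0.52 for KO and -2.24 ± 0.47 for V, so that KO held 5.73% of the WT level. WT1 carried much of the WT mean, at 3.86 times the level of WT3. Without WT1 the 3 log2 fold changes were -1.80, -3.36 and -1.48.

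Taf7l, the X-linked TFIID relative, measured 39.7, 27.3 and 14.7 CPM in HxD, 20.98, 6.38 and 10.1 in KO, 6.51, 21.7 and 27.4 in V, against 196.3, 84.1 and 45.3 in WT. The highest mutant library, HxD1, stood just below WT3, and libraries of HxD, KO and V overlapped one another. Its log2 fold change was -1.99 ± 0.48 in HxD, -3.12 ± 0.502 in KO and -2.54 ± 0.49 in V. As with Tex101, the WT libraries were far apart, by 4.34 times, and without WT1 the values were -1.24, -2.37 and -1.80. Without KO1 the KO value was -3.72.

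Brdt, the testis BET gene, measured 17.1, 23.05 and 21.2 CPM in HxD, 15.8, 6.29 and 9.82 in KO, 12.6, 24.1 and 21.2 in V, against 80.3, 77.8 and 35.1 in WT. WT3 was the low WT library and was still above V2, the highest mutant library. The log2 fold change was -1.65 ± 0.37 in HxD, -2.60 ± 0.39 in KO and -1.74 ± 0.38 in V. The levels of HxD and KO did not overlap for Brdt, HxD being higher. This held for 2 of the 6 genes and for 4.92% of all genes.

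Tuba3a, the alpha tubulin, had the highest level per length of the 6 and the smallest relative difference. It reached 130.4, 187.7 and 140.06 CPM in HxD, 150.8, 109.1 and 138.2 in KO, 105.98, 116.2 and 170.5 in V, against 357.4, 276.5 and 265.4 in WT. The 3 mutants overlapped one another and all lay below WT. The log2 fold change was -0.97 ± 0.20 in HxD, -1.18 ± 0.21 in KO and -1.20 ± 0.21 in V, so that each mutant held 43.7% to 50.9% of the WT level. Tuba3a is uncertain as a single gene because it has a near copy, Tuba3b, also on chromosome 6. Their longest GENCODE M21 transcripts are identical at 96.9% of 1426 aligned bases, with an unbroken identical run of 179 bases, and the treatment of reads that fit both is unknown here. A stretch of 33 bases in the promoter windows is also common to both, shown to make the duplication visible, with the E2F-type letters TCCCGC inside it.
Tuba3a and Tuba3b: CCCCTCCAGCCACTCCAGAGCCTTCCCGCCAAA

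Tuba3b itself was at 24.2 ± 5.58 CPM in HxD, 17.6 ± 2.57 in KO, 13.96 ± 7.24 in V and 33.1 ± 6.89 in WT (SD, n = 3 each). It was not called, with log2 fold changes of -0.45 ± 0.39 in HxD, -0.91 ± 0.39 in KO and -1.25 ± 0.39 in V, and edgeR adjusted p of 0.926, 0.298 and 0.223. An antisense gene, 4930417O13Rik, overlaps 4.97% of the exon length of Tuba3a in GENCODE M21, and without a stated strand setting the reads of these genes cannot be told apart. For the other 5 genes no exon overlapped an exon of another annotated gene.

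Btbd18, the piRNA precursor regulator, was the most uneven within KO. Its libraries measured 21.7, 10.4 and 8.54 CPM in HxD, 0.572, 5.71 and 15.8 in KO, 8.65, 6.81 and 9.42 in V, against 72.1, 44.8 and 50.9 in WT. KO1 and KO3 differed by 27.6 times, with 15 counts in KO1, whereas the V libraries differed by 1.38 times. KO1 and KO3 are both among the libraries that captured few rare genes, and they stood at opposite ends. The log2 fold change was -2.04 ± 0.596 in HxD, -2.93 ± 0.62 in KO and -2.75 ± 0.61 in V. In KO it was -2.38 without KO1 and -4.17 without KO3.

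Gm7972, the predicted gene, measured 57.8, 34.6 and 48.1 CPM in HxD, 39.9, 27.99 and 19.1 in KO, 30.2, 43.5 and 43.4 in V, against 185.7, 123.4 and 117.2 in WT. Its groups were compact, with the highest and lowest WT library 1.58 times apart, and the highest mutant library, HxD1, stood far below the lowest WT library. The log2 fold change was -1.60 ± 0.27 in HxD, -2.29 ± 0.28 in KO and -1.86 ± 0.27 in V, with small standard errors beside those of Tex101, Taf7l and Btbd18.

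Levels of different genes can be set side by side only per length. Using GENCODE M21 exon lengths, WT held 198.7 ± 33.3 CPM per kb for Tuba3a, 51.4 ± 37.0 for Tex101, 48.4 ± 34.9 for Taf7l, 43.9 ± 11.7 for Gm7972, 15.9 ± 4.07 for Btbd18 and 12.6 ± 4.96 for Brdt (SD, n = 3 each). Tex101, Taf7l and Gm7972 did not differ beyond their spread, nor did Btbd18 and Brdt. In KO the order began again with Tuba3a, at 87.95 ± 14.2 CPM per kb, followed by Gm7972 at 8.96 ± 3.23, and the other 4 genes were between 2.08 and 5.57.

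The edgeR quasi-likelihood test, with Benjamini-Hochberg adjustment over all 16166 genes at an adjusted p under 0.05, called 2 of the 6 genes lower in HxD against WT (Tex101 and Gm7972), where it called 0.0247% of all genes lower. It called 6 of 6 lower in KO, where 0.495% of all genes were called lower, and 5 of 6 lower in V, all but Btbd18, where 0.0866% were. All 3 libraries of the mutant lay below all 3 of WT for 6 of 6 genes in each comparison. This held for 5.77% of all genes in HxD, 8.36% in KO and 7.48% in V. The genes were chosen on these contrasts, which also share the WT libraries, so nothing follows from the counts. The median log2 fold change of the 6 was -1.82 in HxD, -2.76 in KO and -2.05 in V, and that of all genes was -0.0071, -0.017 and 0. The KO count was 6 in all 12 fits that left a single library out. The HxD count was 0 without WT1, 1 without HxD3, 6 without KO1 and 5 without any 1 of KO2, KO3, V1, V3 and WT3. The V count was 1 without V1, 2 without WT1 and 3 without WT2.

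**Figure D2:**
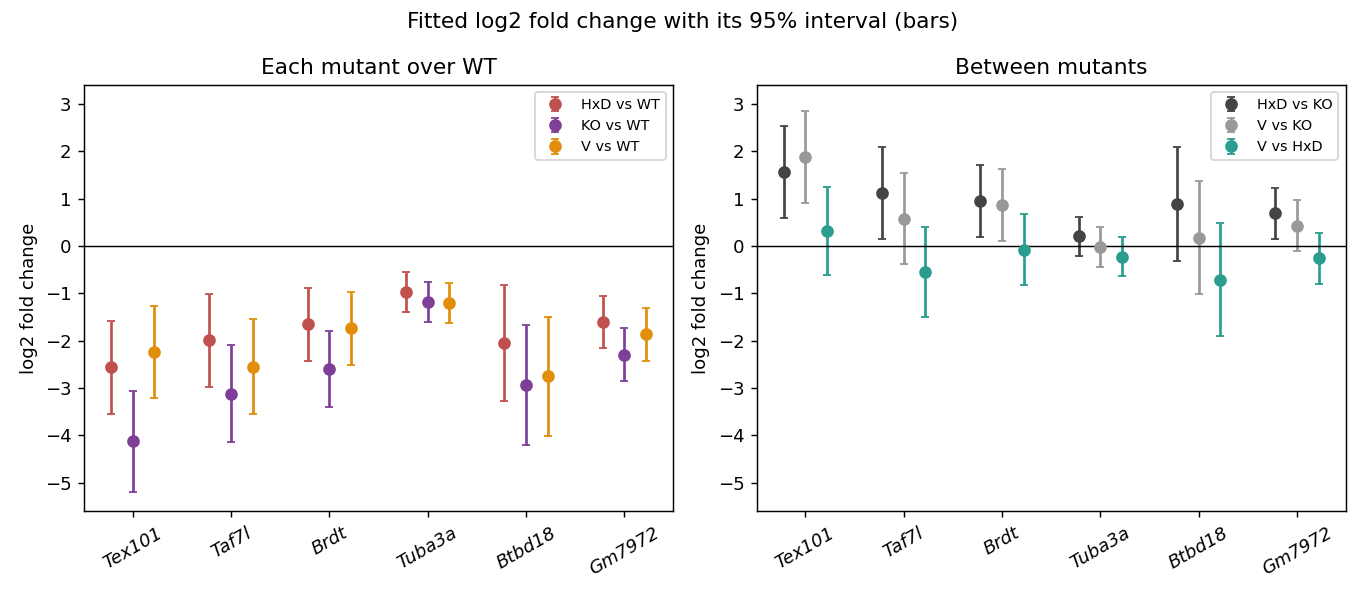
Fitted log2 fold changes of the 6 genes (points) with 95% intervals (bars), for HxD, KO and V over WT on the left and for pairs of mutants on the right. Against WT all points are negative, from -0.97 for Tuba3a in HxD to -4.12 for Tex101 in KO; between mutants most intervals include 0, and HxD over KO is positive for 6 of 6.

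Whether the 3 mutations differ in their effect on these genes was asked by comparing the mutants with each other. The choice was for a fall in the same mutant libraries, so these contrasts are not free of it. It can favour genes that were low in KO, where 80 of all genes were called lower, against 4 in HxD and 14 in V. The values are therefore given as a description, and how far the choice shaped them was not tested. None of the 6 genes was called in any of the 3 pairs by edgeR, by DESeq2 or by limma-voom. Of the 16166 genes, edgeR called 0% in each pair and limma-voom 0. DESeq2 called 27 in HxD against KO, 19 in V against KO and 16 in V against HxD. At an unadjusted p under 0.05, 4 of the 6 passed in HxD against KO, 2 in V against KO and 0 in V against HxD, where 514, 747 and 326 of all genes did. In HxD against KO the log2 fold change was positive for 6 of 6 genes, from 0.20 for Tuba3a to 1.56 for Tex101, with a median of 0.91 beside 0.0091 for all genes. In V against KO it was positive for 5 of 6, with a median of 0.50 beside 0.025, and in V against HxD it was negative for 5 of 6, with a median of -0.24 beside 0.0092. The direction of HxD over KO held in each of the alternative fits, which reuse the libraries of the choice.

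The intervals show how large a difference these libraries leave room for, with the same limit from the choice. For Tex101 the log2 fold change was 1.56 (95% interval 0.595 to 2.53) in HxD over KO and 1.88 (0.91 to 2.86) in V over KO (edgeR, adjusted p = 1 and 0.945). All 3 KO libraries were below all 3 HxD and all 3 V libraries for this gene, a separation that 4.92% and 6.19% of all genes showed. For Taf7l HxD over KO was 1.12 (0.157 to 2.09), and for Brdt it was 0.94 (0.184 to 1.70). For Tuba3a, the steadiest of the 6, the intervals were narrow, -0.21 to 0.62 in HxD over KO and -0.43 to 0.396 in V over KO. For Btbd18 they ran from -0.31 to 2.08 and from -1.02 to 1.37, so that differences of either sign lie inside them. Tex101 was called in V over KO without V1 (log2 2.25, edgeR adjusted p = 0.0405), where 2 of 17310 genes were called. With no filter on low counts it was called in HxD over KO and V over KO (edgeR adjusted p = 0.00955 and 0.000355). There 10 and 5 of 22037 genes were called. When HxD1, KO1 and KO3 were all dropped, 1 KO library was left, and V over KO was log2 1.79 for Tex101 and 1.58 for Taf7l.

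Libraries of 1 group also differed among themselves. On the log2(CPM + 1) scale, WT1 was above the WT mean for 6 of 6 genes, with a median deviation of 0.41, and WT3 was below it for 6 of 6, with a median of -0.51. V3 was above the V mean for 6 of 6 (median 0.22) and V1 below it for 5 of 6 (median -0.44). HxD and KO libraries had no such common direction, with 2 to 4 of the 6 genes above the group mean in each. The 20 meiotic entry and early prophase genes, such as Stra8 and Sycp1, moved alike within WT and V, with median deviations of 0.44 in WT1, -0.19 in WT2, -0.27 in WT3, -0.39 in V1, 0.17 in V2 and 0.27 in V3. The median deviation of all tested genes was between -0.11 and 0.081 in every library. The part of the stage of the cells in these differences was not tested.

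**Figure D3:**
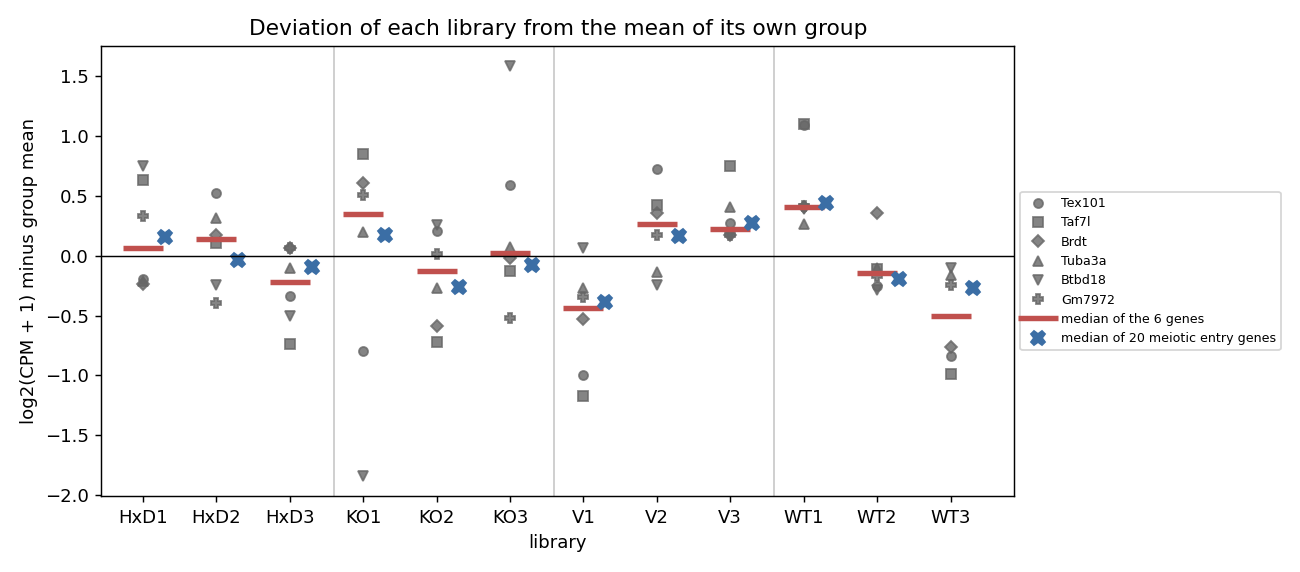
Deviation of each library from its own group's mean on the log2(CPM + 1) scale for the 6 genes (grey), their median (red line) and the median of 20 meiotic entry genes (blue cross). WT1 is above 0 and WT3 below 0 for all 6 genes, and the blue crosses lie on the same side as the red lines in WT and V libraries; Btbd18 spans the widest range within KO.

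The genes nearest in pattern were found by the root mean square difference of gene-centred log2(CPM + 1) values over the 12 libraries, among the 13335 tested genes that averaged 1 CPM or more. This distance includes the gap between WT and the mutants for which the 6 genes were picked. A near gene is therefore one with a similar fall, and no shared role follows. The distance also depends on the size of the fall and on the spread between libraries. For Taf7l the nearest were Stra8, the gatekeeper of meiotic entry (0.41 log2 units), Meioc, which sustains the meiotic programme (0.47), and H2-K1, an MHC class I gene (0.48). For Tex101 they were 4933427D06Rik (0.59), Stra8 (0.64) and Afmid, a kynurenine pathway enzyme (0.64). For Brdt they were Dbn1, an actin-binding protein (0.37), Fgf11 (0.38) and Tdrd1, a Tudor protein of the piRNA pathway (0.44). Tuba3a had the closest neighbours, Larp1b (0.197), Wbp2nl (0.23) and the germ cell helicase Ddx25 (0.23). For Gm7972 they were Fgf11 (0.35), Msantd1 (0.37) and Oscp1 (0.403). Btbd18 had the most distant ones, Tex13 (0.62), Cdkl2 (0.67) and Col22a1 (0.67), and it was 0.82 to 1.13 from each of the other 5 genes. The closest pair among the 6 was Brdt and Gm7972, at 0.42. With a pseudocount of 0.1 CPM, 11 of these 18 genes were still among the 3 nearest of the same gene, in some cases at another rank.

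Relatives of the 6 genes were examined in the same fit. They came from lists of families and partners, drawn up with earlier results of these data known. The BET genes Brd2 and Brd3 were not called in any mutant by edgeR, DESeq2 or limma-voom, and 0 of their values had an unadjusted p under 0.05. Brd2 was at 341.1 ± 50.7 CPM in HxD, 339.2 ± 40.8 in KO, 339.8 ± 16.8 in V and 353.5 ± 33.8 in WT (SD, n = 3 each). Brd3 had log2 fold changes of 0.026 in HxD, 0.26 in KO and 0.14 in V. Of 17 tested TFIID subunits and TBP relatives, 0 were called by edgeR in each mutant, with medians of -0.083 in HxD, 0.13 in KO and 0.027 in V. At an unadjusted p under 0.05 there were 1, 3 and 1. These were Taf12 in HxD, Taf5, Taf7 and Taf12 in KO, and Taf5 in V, all lower except Taf7. DESeq2 called 1 in KO and limma-voom 0. Taf7, the general counterpart of Taf7l, was at 104.2 ± 11.9 CPM in HxD, 118.6 ± 7.68 in KO, 97.5 ± 4.04 in V and 81.1 ± 5.19 in WT and was not called (edgeR, log2 0.36, 0.55 and 0.27, adjusted p = 0.702, 0.148 and 0.681). Taf4b, the gonad-enriched TAF4 relative, was not called either (log2 -0.27, -0.24 and -0.29).

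Of 13 tested alpha and beta tubulins other than Tuba3a, 0 were called in each mutant by edgeR, DESeq2 or limma-voom (0 in HxD, 3 in KO and 3 in V at an unadjusted p under 0.05), and the medians were 0.28 in HxD, 0.17 in KO and 0.31 in V. In both KO and V, those 3 were Tuba3b, which was lower, and Tubb5 and Tubb4b, which were higher (log2 0.37 and 0.52 in KO). The general alpha tubulin Tuba1b was at 122.3 ± 11.7 CPM in HxD, 132.3 ± 18.2 in KO, 146.03 ± 39.3 in V and 117.98 ± 23.5 in WT. The Ly6/uPAR family had 13 tested genes and 0 called by edgeR (1 per mutant at an unadjusted p under 0.05), and DESeq2 and limma-voom each called 1 in KO. Lypd4, a relative of Tex101 singled out after its values were seen, had 0 counts in all 3 KO libraries and was at 3.11 to 12.9 CPM in WT, but was not called in KO (edgeR, adjusted p = 0.0890). All 13 tested repressors of germline genes in the PRC1.6 and E2F6 list, such as Mga, Max, E2f6 and L3mbtl2, were not called by edgeR, DESeq2 or limma-voom, with medians of 0.063 in HxD, 0.062 in KO and 0.021 in V (2, 0 and 1 at an unadjusted p under 0.05).

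Among Tex-named genes, a label for testis-expressed genes, 19 others were tested. In KO 2 were lower and 17 not called: Tex13 fell to 15.2 ± 10.9 CPM in KO, against 59.0 ± 10.3 in WT (log2 -1.96 ± 0.402, edgeR adjusted p = 0.0138), and the X-linked meiotic gene Tex11 fell, with a log2 value of -1.80 ± 0.39 (edgeR adjusted p = 0.0182). In V 1 was lower, Tex15 (log2 -1.02, edgeR adjusted p = 0.0486), and in HxD 0 by edgeR (6 at an unadjusted p under 0.05) and 1 each by DESeq2 and limma-voom. The KO call of Tex11 was lost without WT1 (edgeR adjusted p = 0.0763), and the V call of Tex15 without V1 or WT2 (0.311 and 0.164). The list medians were -0.22 in HxD, -0.55 in KO and -0.31 in V. Of 13 tested regulators of spermatogenic transcription, Tcfl5 fell to 29.8 ± 9.48 CPM in KO, against 71.98 ± 15.8 in WT (log2 -1.27 ± 0.31, edgeR adjusted p = 0.0357), and 12 were not called. In HxD and V 0 were called by edgeR, with 3 and 4 at an unadjusted p under 0.05, and DESeq2 called 2 in V. The Tcfl5 call was lost without KO1, KO3, WT1 or WT2 (adjusted p up to 0.162). Mybl1, the A-MYB factor that drives pachytene transcription together with TCFL5 and with which BTBD18 shares piRNA targets, was at 66.5 ± 17.8 CPM in HxD, 56.1 ± 8.25 in KO, 49.99 ± 6.44 in V and 50.7 ± 8.47 in WT, with none of the differences called. Of 9 tested late spermatogenic genes 0 were called by edgeR, DESeq2 or limma-voom, with 1 per mutant at an unadjusted p under 0.05. Apart from Hspa2 and Spaca1 (15.3 and 9.14 CPM in WT), the tested ones averaged 3.16 CPM or less in WT. For genes that low the comparison can decide little.

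Of the 20 meiotic entry and early prophase genes, edgeR called 0 lower in HxD, 9 in KO and 2 in V, with medians of -1.03, -1.45 and -0.83. In HxD 13 had an unadjusted p under 0.05, and DESeq2 called 4 and limma-voom 5. The KO calls included Gm4969 (Meiosin, log2 -2.95), Stra8 (-2.90), Sycp1 (-2.13) and Dmc1 (-1.55), with edgeR adjusted p of 0.000696, 0.000907, 0.00162 and 0.00162. In V they were Sycp1 (-2.28, adjusted p = 0.00214) and Stra8 (-2.16, adjusted p = 0.0338). Without WT1 the Stra8 value was -1.26 in HxD, -2.19 in KO and -1.44 in V, and its V call was lost without WT1 (edgeR adjusted p = 0.0774) or V1 (0.0558).

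**Figure D4:**
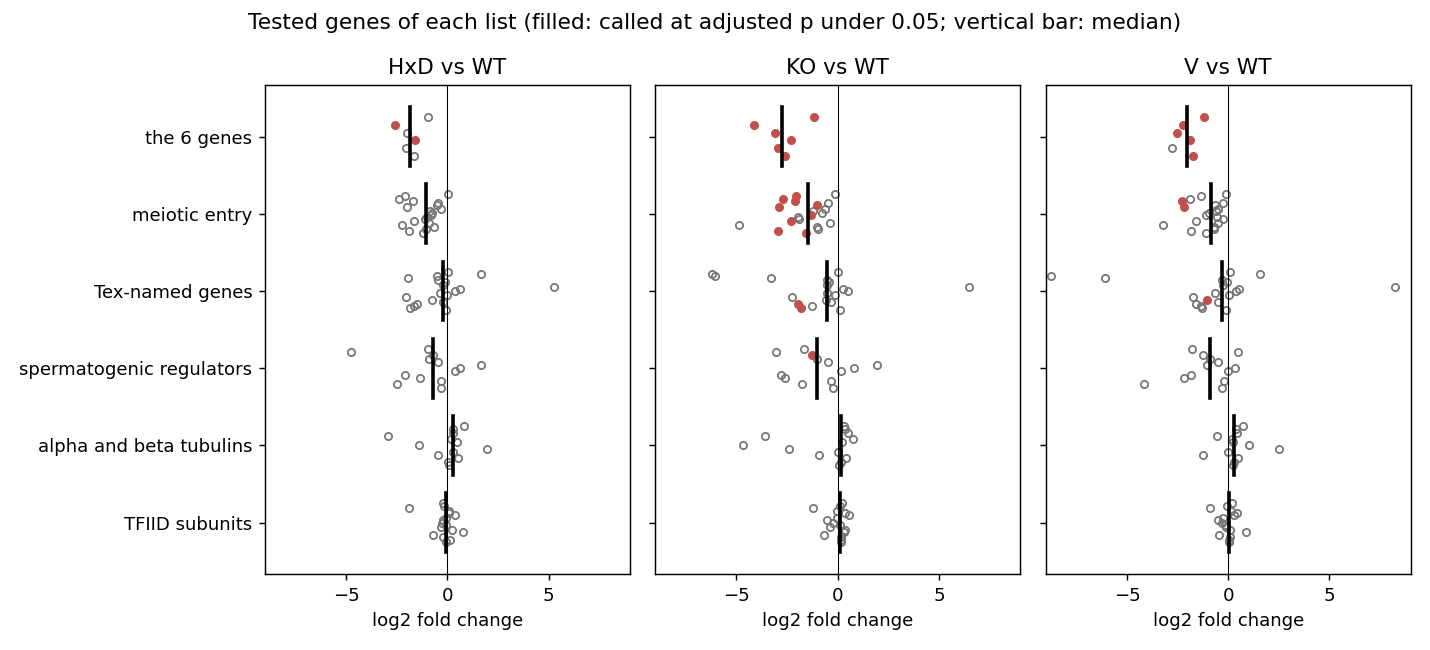
Log2 fold changes of the 6 genes and of tested genes in 5 lists, for HxD, KO and V over WT; filled points were called by edgeR at an adjusted p under 0.05, and vertical bars are medians. In the row of the 6 genes, which were chosen on these contrasts, 2 were called in HxD, 6 in KO and 5 in V. Among the lists, called genes lie in the meiotic, Tex-named and spermatogenic rows, 9, 2 and 1 of them in KO, while the tubulin and TFIID rows hold none.

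The genes beside the 6 on the chromosome were examined to see whether a low count was shared with neighbours. The nearest tested gene on each side, and 1 overlapping gene, gave 13 neighbours by the order of the RefSeq table. None was called in any mutant against WT by edgeR, DESeq2 or limma-voom (0 in HxD, 2 in KO and 0 in V at an unadjusted p under 0.05), with medians of 0.197 in HxD, -0.0094 in KO and -0.022 in V. Every neighbour of Taf7l and Brdt was near the floor, with WT means from 0.34 CPM (Timm8a1) to 2.99 (Drp2). Ceacam10 beside Tex101 and E130112N10Rik beside Tuba3a were also low, with WT means of 1.05 and 1.03 CPM. For Taf7l and Brdt, and for that side of Tex101 and Tuba3a, the comparison can therefore decide little. Ctnnd1, which encodes p120 catenin, starts close to the start of Btbd18 on the opposite strand. It was at 124.7 ± 8.31 CPM in HxD, 122.6 ± 31.7 in KO, 108.9 ± 14.9 in V and 122.4 ± 26.8 in WT (SD, n = 3 each). Leo1, a PAF1 complex subunit and the nearest neighbour of Gm7972, was at 62.1 ± 1.33 CPM in HxD, 61.3 ± 2.46 in KO, 53.998 ± 9.44 in V and 54.2 ± 9.24 in WT. All mutant means of both genes lay within 1 SD of the WT mean. Not every neighbour was level. Phldb3, beside Tex101, was higher in KO, at 47.8 ± 8.34 CPM against 28.5 ± 13.8 in WT (log2 0.75 ± 0.35, edgeR adjusted p = 0.350). Ltbr, beside Tuba3a, was at 5.83 ± 1.43 CPM in HxD, 1.49 ± 1.87 in KO, 3.33 ± 1.72 in V and 8.77 ± 4.92 in WT, and its log2 fold change in KO was -2.56 ± 1.20 (edgeR adjusted p = 0.355). Gm17202, which overlaps Brdt, had the lowest fitted value of the 13 in KO, on very few counts, at 0 to 0.895 CPM in HxD, 0 to 0.041 in KO, 0 to 0.531 in V and 0 to 1.69 in WT.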

How the data were processed

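The deposited table holds raw, whole counts of reads by gene symbol in 12 libraries. The submitters' processing notes name STAR 2.7.10b, featureCounts 2.0.3, Trim Galore 0.6.7 and SAMtools 1.9, and the builds GRCm39 and mm10, with no roles; annotation, strand and multi-mapping settings are unknown here.

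Counts were tested with edgeR 4.0.16 in R 4.3.3 (quasi-likelihood F test, two-sided, TMM, default filterByExpr, 1 fit of all libraries by group, Benjamini-Hochberg over 16166 genes). Standard errors are the estimate over the square root of F; intervals are at 95%. DESeq2 1.42.0, limma 3.58.1 (voom), other filters, a replicate block and each library left out were alternatives; the fit was tested on simulated data. The 6 genes and the lists were chosen with earlier results of these data known. Named genes were the 6, Tet1, BET relatives (1 result is not reported here), up to 4 called genes per list and mutant, and the 3 nearest in pattern; Taf7, Taf4b, Tuba3b, Tuba1b, Mybl1, Lypd4, Ctnnd1 and Leo1 were added. Promoter sequences are from RefSeq (GRCm38.p6), exon lengths and strands from GENCODE M21. Intervals cover the spread between libraries; no molecular identifiers are stated.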

Additional observations from a re-analysis of the deposited data

How the results depend on the processing

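All 342 log2 fold changes of the 6 genes against WT under the alternatives were negative, and 337 moved by less than the spread between replicates. The genes were chosen on these contrasts and the alternatives reuse the same libraries. Neither the sign nor the calls against WT below are therefore support for the fall. Of the 6 genes, the number called lower in KO was 6 throughout; other counts moved, HxD from 2 and V from 5. By DESeq2 the HxD count was 4; by limma-voom HxD was 4 and V 3; with no filter HxD was 6; at a mean of at least 5 CPM HxD was 0 and V 2. Counts over all genes against WT under these settings are not given here, so whether calls rose in general is not shown. With no filter 1 of the 6 was called in HxD against KO and 1 in V against KO, where 10 and 5 of 22037 genes were. Leaving out HxD1, KO1 and KO3, chosen after seeing the data, left 1 KO library, so calls from that fit are not counted. With each library left out in turn, when 17159 to 17503 genes passed the filter, counts ranged from 0 to 6 in HxD, 6 to 6 in KO and 1 to 6 in V, and 0 to 1 in V against KO; they were 0 in HxD against KO and in V against HxD.

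Over the gene lists, cell type markers not included, 0 genes were called in HxD, 12 in KO and 3 in V. These were 1 in HxD and 5 in V with DESeq2 size factors, 5, 21 and 9 in HxD, KO and V by DESeq2, 6 and 5 in HxD and V by limma-voom, 14 and 13 with no filter, and 14 and 17 with the 3 libraries left out. At a mean of at least 5 CPM V had 1. With single libraries left out they ranged from 0 to 9 in HxD, 8 to 16 in KO and 1 to 12 in V. With pseudocount 0.1 CPM, 11 of 18 genes nearest in pattern stayed among the 3 nearest. Fits without a library also tested more genes. The causes of these shifts were not tested.

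Equal replicate numbers are not said to pair samples, and none of 18 same-numbered pairs correlated above 0.1 (-0.083 to 0.0597), with 2 of 12 libraries correlating best with their own number. With the replicate block the 6 genes gave 4 in HxD and the lists 8 in HxD and 10 in V, and all genes called were 22, 285 and 73 in HxD, KO and V, against 5, 197 and 25 without it.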
